A study of Mus musculus with 25 samples.

Results

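The genes examined were 33 mouse genes that build melanosomes, sort proteins into them and move them, chosen by symbol, with earlier results of these data known, out of 55385 genes counted in 25 RNA-seq libraries. All 33 were found through their Ensembl identifiers, and all 33 were among the 15247 genes kept by the filter on low counts. The filter requires counts in the libraries of 1 line only, so members with few counts in D4M passed it through the other 4 lines. The set held 6 genes of melanosome movement, 3 Rab GTPases, 17 subunits of 4 sorting complexes, Lyst and 6 membrane proteins.

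RNA was collected from 5 murine melanoma lines in culture at 50% confluency, without drugs, with 5 libraries labelled as biological replicates per line. WT31 comes from Tyr::NrasQ61K/°; INK4a-/- mice, RET from mice with a metallothionein-I (MT)/RET transgene, and B16F10 luc2 was a purchased line. D4M comes from Tyr::CreER;BrafCA;Ptenlox/lox mice, in which the tyrosinase promoter drives the recombinase, and HCmel12 comes from HGF-CDK4(R24C) mice, from a primary tumour. The first 3 lines formed the group with high or intermediate liver colonization (HIM-melanoma) and D4M and HCmel12 the group with low colonization (LM-melanoma). Each group member is 1 cell line, so a p-value here measures the spread between cultures of a line and describes these lines. D4M grew in Advanced DMEM/F-12 with less serum and HCmel12 in supplemented RPMI, whereas the other lines grew in plain RPMI, so line and medium cannot be told apart in comparisons with D4M or HCmel12.

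A melanosome is a lysosome-related organelle of pigment cells in which melanin is made on fibrils of PMEL. AP-3, BLOC-1 and BLOC-2 sort enzymes and transporters from endosomes into the maturing organelle, BLOC-3 activates RAB32 and RAB38, and loss of most of these subunits pales the coat of mice or causes Hermansky-Pudlak syndrome. Mature melanosomes are tethered to actin by RAB27A, melanophilin and myosin Va, whose loss gives the ashen, leaden and dilute coat colours.

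Library totals lay between 24199083 and 25843286 counts. Levels are given in CPM, the counts of a gene relative to the library total after scaling by TMM factors, which averaged 0.9 in D4M and between 1.001 and 1.052 in the other lines. Scaling by library size alone moved the median of all genes by 0.23 (log2) in WT31 against D4M, 0.15 in B16F10 luc2 against D4M and 0.20 in RET against D4M, and small differences of D4M are read with this in mind. The 8 melanocyte lineage markers summed to between 12260 and 30380 CPM in the libraries of the other 4 lines and to between 26.66 and 82.31 CPM in D4M. The defining markers of the melanocyte lineage were thus close to absent in D4M, with Pax3 as the main remainder at 21.01 CPM. The summed levels of 6 fibroblast markers were 678.4 to 1324 CPM in D4M and at most 88.78 CPM elsewhere, while Lum was at 3 counts or less in every library of every line. The 6 macrophage and leukocyte markers summed to at most 16.62 CPM in any library, and Ptprc, Adgre1 and Tyrobp stayed at 3 counts or less throughout. Keratinocyte markers reached at most 0.1336 CPM.

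Tyrp1, a melanosomal enzyme, had 588, 1, 0, 0 and 67 counts in D4M replicates 1 to 5, so that replicates 1 and 5 held traces of pigment gene RNA. Each count below was also taken without these libraries. In HCmel12, replicate 4 stood apart with 30.1 CPM of Tyr against at most 9.13 CPM in its other libraries. Of 350 fold changes examined, 8 lost and 3 gained the call without HCmel12 replicate 4, and 7 lost it without D4M replicates 1 and 5, and those described below are given with and without these libraries.

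All 33 members differed among the 5 lines in an F test, which called 96.8% of all tested genes. The median range between line means was 1.43 (log2) for the members and 1.41 for all tested genes, so the set as a whole was not wider than the background. The range was uneven within the set. The fitted range was widest for Trpm1, followed by Rab27a with 10.01, Rab38 with 9.18, Sytl2 with 8.41, Bace2 with 7.64, Mreg with 6.72, Gpnmb with 5.28 and Mlph with 5.21 on the log2 scale, and D4M was the lowest line for each of these 8. For members near 0 in D4M, Trpm1 first, the fitted range depends on the offset added to low counts and is no bound. At the other end, Bloc1s4 spanned 0.39 and Ap3b1 0.59.

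**Figure D1:**
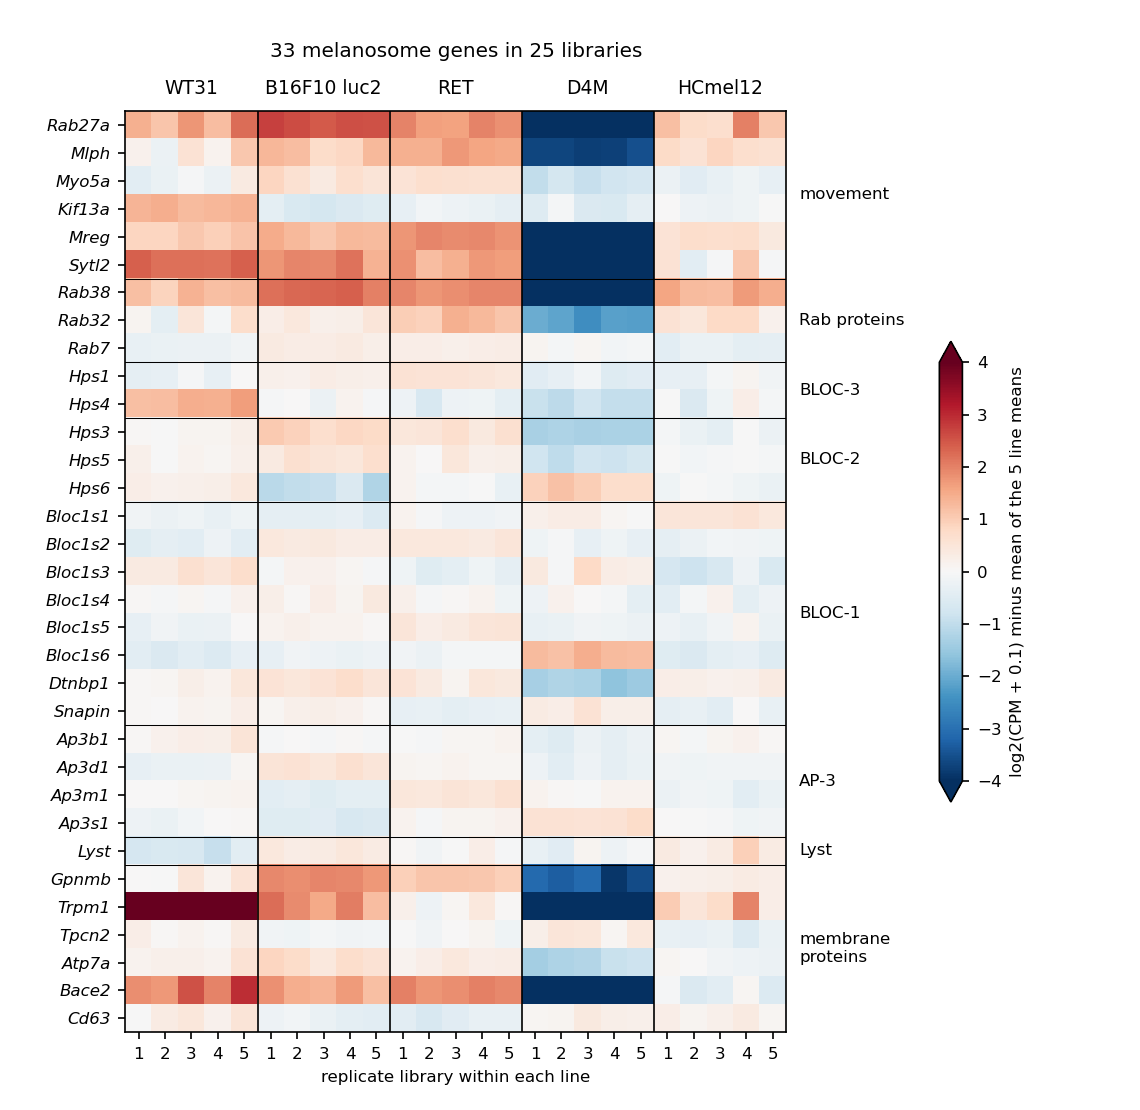
Each row is a member and each column a library, and the colour gives log2(CPM + 0.1) minus the mean of the 5 line means, limited to 4 in both directions. The 5 columns of D4M are dark blue for Rab27a, Sytl2, Mreg, Rab38, Trpm1 and Bace2 and red for Bloc1s6, while most rows of BLOC-1 and AP-3 stay pale.

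D4M stood apart from the other lines. Called means an adjusted p under 0.05 in limma without a limit on the fold change. Of the 33 members, 16 (48.5%) were lower in D4M than in each of the other 4 lines, where 15.7% of all tested genes were. They were Rab27a, Mlph, Myo5a, Mreg, Sytl2, Rab38, Rab32, Hps3, Hps4, Hps5, Ap3b1, Dtnbp1, Gpnmb, Trpm1, Atp7a and Bace2. The same 16 were called without D4M replicates 1 and 5. Of these, Trpm1, Rab38, Sytl2 and Rab27a had too few counts in D4M to be tested when 10 counts in every library were required. With a limit of 1 on the size of the log2 fold change 11 of them were called, without Hps5, Ap3b1, Atp7a, Myo5a and Hps4. The share of 15.7% holds for calls without this limit, so the count of 11 is given without a background. Only 4 members, Hps6, Ap3s1, Bloc1s6 and Snapin, were higher in D4M than in each other line, where 20% of all genes were. Since RNA came from bulk cultures, fewer cells that express a gene and less RNA per cell cannot be told apart.

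The other lines stood apart for fewer members. WT31 was higher than each other line for 5 members, Hps4, Ap3b1, Trpm1, Kif13a and Sytl2, against 13.8% of all genes, and lower for Bloc1s2 and Lyst, against 11.1%. Without WT31 replicate 5, 3 members were higher, and without WT31 replicate 1 or D4M replicate 2 only 1 was lower. B16F10 luc2 was higher for 7, Rab27a, Rab38, Hps3, Hps5, Ap3d1, Gpnmb and Atp7a, against 8.81%, and lower for 4, Hps6, Ap3m1, Ap3s1 and Bloc1s1, against 6.83%. RET was higher for 6, Mlph, Rab32, Hps1, Ap3m1, Bloc1s5 and Mreg, against 7.07%, and lower for 0 members, against 5.06%. limma gave 0 at an unadjusted p under 0.05 too, and edgeR and DESeq2 gave 0 at an adjusted p under 0.05. HCmel12 was higher for Bloc1s1 alone, against 9.56%, and lower for Rab7 and Tpcn2, against 6.85%. The last count rested on small differences and fell to 0 without HCmel12 replicate 1. It fell to 1 without WT31 replicate 3, 4 or 5, without any single B16F10 luc2 library, or without HCmel12 replicate 2, 4 or 5. Without HCmel12 replicate 4 neither Rab7 nor Tpcn2 kept all its calls. Rab7 gave 0.1 for WT31 against HCmel12 (log2, adjusted p = 0.072). Tpcn2 gave 0.17 for B16F10 luc2 against HCmel12 (log2, adjusted p = 0.13). Bloc1s3 gained the call for RET against HCmel12 (0.37, adjusted p = 0.029). Without D4M replicates 1 and 5, Tpcn2 gave 0.22 for B16F10 luc2 against HCmel12 (adjusted p = 0.051).

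**Figure D2:**
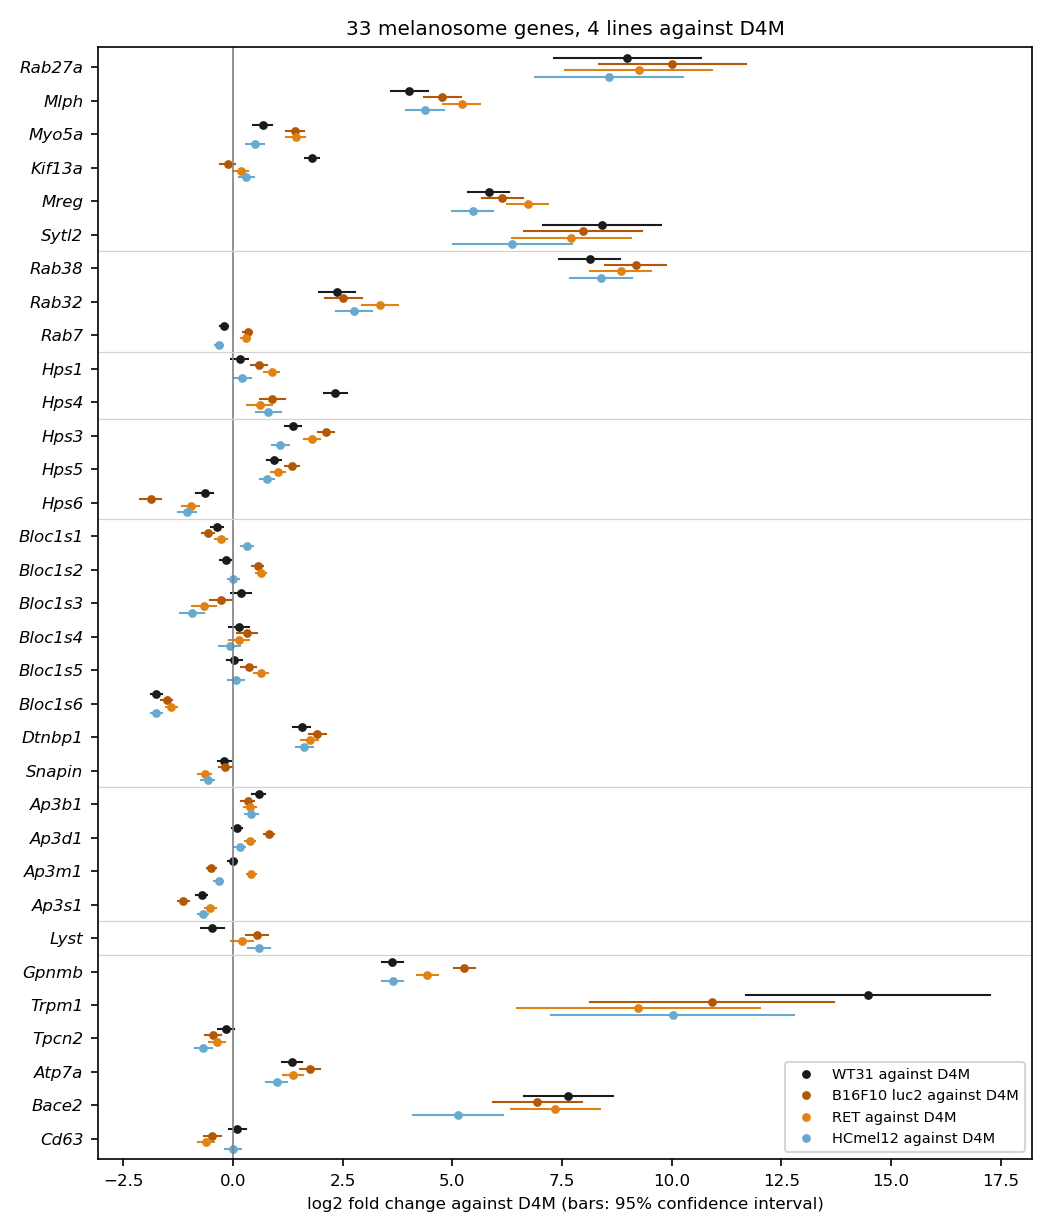
Points give the log2 fold change of each of the other 4 lines against D4M for every member, with horizontal bars for the 95% confidence interval and rows grouped by role. The points of Rab27a, Sytl2, Mreg, Rab38, Trpm1 and Bace2 lie far to the right with wide intervals, and those of Hps6, Bloc1s6, Ap3s1 and Snapin lie to the left of 0.

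Promoter sequences are shown for members that share the call of lower in D4M than in each other line. MITF and its relatives TFEB and TFE3 bind E-boxes, among them CACGTG and the M-box TCATGTG. The RefSeq promoter table (GRCm38.p6) covers 250 bases before to 50 after each start site and had an entry for 27 of 33 members, with 32 promoters. Rab38, Ap3s1, Bloc1s6, Snapin, Sytl2 and Bace2 had no entry. Windows around the matches follow, 5′ to 3′ on the strand of the gene, with CACGTG and TCATGTG in capitals.
Trpm1, chr7:64153653-64153739, plus strand: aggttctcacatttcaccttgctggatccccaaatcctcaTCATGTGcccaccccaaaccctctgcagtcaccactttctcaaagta
Mlph, chr1:90915012-90915097, plus strand: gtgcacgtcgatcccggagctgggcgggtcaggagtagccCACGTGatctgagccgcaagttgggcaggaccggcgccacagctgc
Rab27a, chr9:73063898-73063947, plus strand: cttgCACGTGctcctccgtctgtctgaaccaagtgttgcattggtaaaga
Hps3, chr3:20035311-20035365, minus strand: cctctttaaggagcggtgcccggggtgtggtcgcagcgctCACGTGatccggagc
Hps5, chr7:46796028-46796113, minus strand: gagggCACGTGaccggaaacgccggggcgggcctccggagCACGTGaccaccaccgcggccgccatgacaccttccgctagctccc
Atp7a, chrX:106027097-106027182, plus strand: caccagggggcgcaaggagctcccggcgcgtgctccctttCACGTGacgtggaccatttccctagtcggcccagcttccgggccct

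CACGTG reads the same on both strands and was present in the promoters of 9 members of 27, namely Atp7a, Bloc1s1, Bloc1s3, Hps1, Hps3, Hps5, Mlph, Rab27a and a second start site of Trpm1. Of all 32851 promoters 7.15% held it, and of all 27025 genes 8.09%. Among the 13 members with an entry that were low in D4M, 6 held CACGTG. The 3 others of the 9 were Bloc1s1, Bloc1s3 and Hps1, none of which was lower in D4M than in each other line. TCATGTG, searched on both strands as TCATGTG and CACATGA, was found for Trpm1, 142 bases before its start site, and for Hps1, against 4.31% of genes. The shorter CATGTG, which TCATGTG contains, was found for 4 members of 27 against 15.9% of genes, and the general form CANNTG, which contains all of these, for 20 members against 75% of genes. A match describes these letters in this window and no binding was measured.

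Among the roles, the movement genes had the largest median difference to D4M. Of 6 members, Rab27a, Mlph, Myo5a, Sytl2 and Mreg were lower in D4M than in each other line, and Kif13a was set apart by WT31. The median log2 fold change over the 6 was 4.93 in WT31 against D4M, 5.46 in B16F10 luc2, 5.97 in RET, and -4.92 for D4M against HCmel12, where the medians over all genes were between -0.01 and 0.01.

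Rab27a encodes the GTPase on the melanosome surface. Its levels in replicates 1 to 5 were 134, 107, 169, 117 and 234 CPM in WT31, 328, 303, 271, 297 and 288 CPM in B16F10 luc2, and 197, 156, 153, 196 and 176 CPM in RET. In HCmel12 they were 115, 82.5, 79.9, 200 and 104 CPM, and in D4M 0.506, 0.178, 0.268, 0.178 and 0.298 CPM. No library of D4M came near those of the other lines, and B16F10 luc2 lay above all of them. The summed D4M counts of 32.03 correspond to 0.284 CPM with an exact Poisson interval (95%) of 0.194 to 0.401 CPM, which covers counting error only. The mean of HCmel12, the next line, was 409 times this level and 290 times its upper bound. The fitted log2 fold change was -8.58 for D4M against HCmel12 and 10.01 for B16F10 luc2 against D4M. Since Rab27a passed the filter through the other 4 lines, these values are given without a test. They depend on the offset added to low counts. B16F10 luc2 exceeded RET by 0.77 (log2, adjusted p = 0.001). Among RET, WT31 and HCmel12 no step between neighbours was called, although RET exceeded HCmel12 (0.67, adjusted p = 0.0026). HCmel12 replicate 4 alone reached the range of RET.

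Mlph encodes melanophilin, the linker between RAB27A and myosin Va. In the libraries of D4M it stood at 16.1, 15.9, 14.9, 15.2 and 17.8 CPM. The 5 RET libraries had 544, 553, 681, 608 and 583 CPM, and those of B16F10 luc2 had 518, 483, 342, 365 and 507 CPM. WT31 was the most variable line with 231, 172, 305, 224 and 433 CPM, and HCmel12 had 348, 307, 372, 326 and 314 CPM. RET lay above every library of every other line, and D4M far below them. RET exceeded D4M by 5.21 (log2, SE 0.21, adjusted p = 7e-18) and B16F10 luc2 by 0.44, given as -0.44 for B16F10 luc2 against RET (SE 0.16, adjusted p = 0.02). Thus Mlph remained measurable in D4M, where Rab27a was close to its detection limit.

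Myo5a encodes the actin motor of the complex and is used in many cell types. Its D4M libraries had 158, 191, 166, 184 and 196 CPM, where the lowest library of another line had 225 CPM. The mean was 179 CPM ± 16.3 (SD, n = 5) in D4M and 480.0 CPM ± 14.9 (SD, n = 5) in RET. The difference of RET to D4M was 1.43 (log2, SE 0.10, adjusted p = 1.5e-12), and D4M against HCmel12 gave -0.50 (SE 0.10, adjusted p = 1.2e-04). The RNA of the motor was therefore reduced far less in D4M than that of its linker and its GTPase. B16F10 luc2 and RET did not differ by the test (log2 fold change -0.02, 95% interval -0.23 to 0.19).

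Sytl2 encodes Slp2-a, a RAB27A effector that anchors melanosomes at the plasma membrane. In WT31 its libraries had 201, 176, 178, 175 and 202 CPM, in B16F10 luc2 132, 149, 147, 173 and 101 CPM, and in RET 136, 90.2, 104, 128 and 123 CPM. HCmel12 had 57.9, 28.9, 37.2, 81.5 and 37.1 CPM, and D4M 0.781, 1.33, 0.401, 0.178 and 0.511 CPM. WT31 lay above and both lines of LM-melanoma below every library of B16F10 luc2 and RET. Against HCmel12 the log2 fold change of WT31 was 2.04 (adjusted p = 2.8e-10), that of B16F10 luc2 1.61 (adjusted p = 2.5e-08) and that of RET 1.35 (adjusted p = 5.7e-07). In D4M the 72 counts summed over 5 libraries gave 0.639 CPM, and 0.637 CPM without replicates 1 and 5.

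Mreg encodes melanoregulin, known from the dilute suppressor locus that darkens the coat of dilute, ashen and leaden mice. Its RET libraries had 76.5, 87.8, 83.7, 86.9 and 79 CPM and lay above all others. B16F10 luc2 had 64.1, 55.3, 48, 55.7 and 54.4 CPM, WT31 40.9, 40.9, 48.2, 43.8 and 49.8 CPM, HCmel12 33.2, 36.6, 36.2, 36.9 and 29.9 CPM, and D4M 0.781, 0.533, 1.11, 0.755 and 0.724 CPM. All 4 steps between neighbouring lines were called. The smallest step was 0.31 between WT31 and B16F10 luc2, given as -0.31 for WT31 (log2, SE 0.07, adjusted p = 5.1e-04), and the largest was -5.46 for D4M against HCmel12 (SE 0.23, adjusted p = 2.2e-17).

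Kif13a, a kinesin that carries recycling endosomes with melanosomal cargo, followed another pattern. WT31 libraries had 110, 116, 102, 107 and 112 CPM, and no library of another line exceeded 42.5 CPM. WT31 against HCmel12, the next line, gave 1.49 (log2, SE 0.07, adjusted p = 1.3e-15). D4M was not separated from B16F10 luc2 or RET by the test and was below HCmel12 (-0.30, adjusted p = 0.0023).

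**Figure D3:**
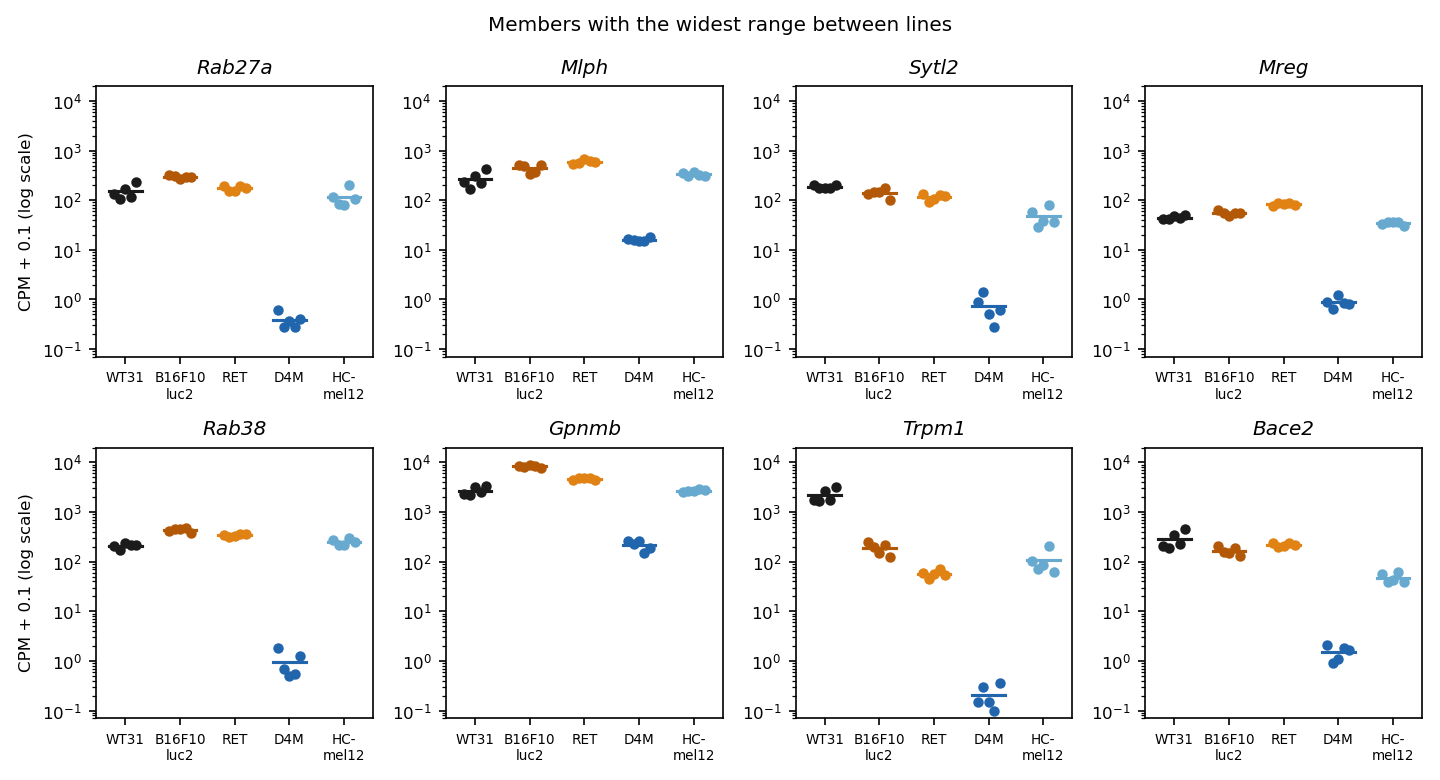
Points are the 5 libraries of each line and horizontal bars their means, for the 8 members with the widest range, on a log axis of CPM + 0.1. In every panel the D4M libraries lie below all others, Trpm1 is highest in WT31 and Gpnmb and Rab38 are highest in B16F10 luc2.

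The related Rab GTPases RAB32 and RAB38 deliver tyrosinase and TYRP1 to melanosomes. Both fell in D4M, Rab38 to near its detection limit and Rab32 less far. Rab7, which serves late endosomes in all cells, moved little. Rab38 libraries of B16F10 luc2 had 420, 450, 464, 480 and 372 CPM and those of RET 353, 316, 333, 357 and 359 CPM. HCmel12 had 278, 221, 217, 301 and 250 CPM and WT31 212, 172, 241, 214 and 221 CPM. D4M had 1.7, 0.578, 0.401, 0.444 and 1.15 CPM, with the highest values in the replicates that held Tyrp1 counts. The D4M level from summed counts was 0.852 CPM in all libraries and 0.474 CPM without replicates 1 and 5, and both are far under the lowest WT31 library. The fitted value of WT31 against D4M was 8.13 (log2). It is given without a test, since Rab38 passed the filter through the other 4 lines. Each neighbouring pair in the order B16F10 luc2, RET, HCmel12, WT31 and D4M was called, but the step from HCmel12 to WT31 was not called without HCmel12 replicate 4 (-0.19 for Rab38 in WT31, adjusted p = 0.077).

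Rab32 was highest in RET with a mean of 131.5 CPM ± 18.96 (SD, n = 5), and D4M had 14.9, 13.7, 10.5, 12.9 and 12.6 CPM. The lowest library of another line, WT31 replicate 2, had 45.4 CPM. RET against D4M gave 3.34 (log2, SE 0.20, adjusted p = 2.8e-14). RET was above HCmel12 by 0.58 (log2, adjusted p = 0.00094). Among HCmel12, B16F10 luc2 and WT31 no step between neighbours was called, although WT31 was below HCmel12 by the test (-0.39, adjusted p = 0.022), a call lost without HCmel12 replicate 4 (-0.33, adjusted p = 0.063). Rab7 had means between 439.8 CPM in HCmel12 and 688.2 CPM in B16F10 luc2. It was called lower in WT31 than in D4M by -0.21 (log2, adjusted p = 1.9e-04), but this turned to 0.02 with library size alone. A share of 18.4% of its 31-base sequences occurs in other genes, mostly a pseudogene, so its level is uncertain.

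BLOC-3, the exchange factor for RAB32 and RAB38, consists of HPS1 and HPS4, and its subunits followed different lines. Hps4 libraries of WT31 had 58.1, 58.9, 67.8, 67.5 and 79.8 CPM, above all others. B16F10 luc2 had 23.9, 25.2, 21.3, 27.8 and 24.4 CPM, HCmel12 24.6, 16.5, 22, 29.9 and 23.8 CPM, RET 21.6, 16.1, 21.6, 22.1 and 18.9 CPM, and D4M 13.5, 12, 14.5, 12.8 and 12.7 CPM. D4M stayed below every library of the other lines, with -0.81 (log2, SE 0.14, adjusted p = 1.1e-05) against HCmel12, while WT31 exceeded B16F10 luc2 by 1.44 (log2, SE 0.11, adjusted p = 6.8e-12). For Hps1, RET was highest with 40.2, 39.6, 39.8, 38 and 36.3 CPM, followed by B16F10 luc2 with 31.4, 30.9, 33.1, 32.1 and 31.6 CPM. HCmel12 had 21.4, 21.8, 25.8, 29.4 and 24.4 CPM, WT31 21.1, 21.4, 26.1, 21.4 and 27.4 CPM, and D4M 19.8, 21.7, 25.1, 19.1 and 19.9 CPM. The last 3 lines overlapped, and none of the steps between neighbours among them was called, although D4M was below HCmel12 by the test (-0.21, adjusted p = 0.038). This call was lost without D4M replicates 1 and 5 (-0.15, adjusted p = 0.24) and without HCmel12 replicate 4 (-0.14, adjusted p = 0.16). RET exceeded WT31 in Hps1, with -0.73 for WT31 against RET (log2, SE 0.08, adjusted p = 1e-08), whereas it had the lower Hps4, with 1.73 for WT31 against RET (log2, SE 0.11, adjusted p = 3.2e-13).

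BLOC-2 is made of HPS3, HPS5 and HPS6 and guides endosomal tubules to melanosomes. Hps3 and Hps5 were lowest in D4M and highest in B16F10 luc2, and Hps6 showed the opposite order at both ends. The Hps3 libraries of B16F10 luc2 had 70.3, 65, 53.8, 60.2 and 57.7 CPM, of RET 46.3, 47.1, 53.6, 44.9 and 52.5 CPM, and of WT31 34.8, 33.4, 37, 36.7 and 39.6 CPM. HCmel12 had 32.2, 28.3, 25.7, 33.8 and 28.7 CPM, and D4M 13.7, 14.5, 13.8, 14.1 and 14 CPM. D4M lay apart from all other libraries, and all 4 steps between neighbours were called, the smallest being 0.29 for WT31 against HCmel12 (log2, SE 0.08, adjusted p = 0.0018). Hps5 had the narrower range, with 25.2, 21.5, 25.4, 24.7 and 26.8 CPM in D4M and 43.5, 40.7, 41.8, 43.4 and 41.6 CPM in HCmel12. It reached 50.1, 42.7, 47.5, 45.8 and 50.5 CPM in WT31, 48.5, 44, 59.8, 50.2 and 50.8 CPM in RET and 56.1, 67.7, 62.1, 60.2 and 69.7 CPM in B16F10 luc2. The difference between D4M and HCmel12 was -0.77 (log2, SE 0.08, adjusted p = 3.1e-09), while WT31 and HCmel12 differed by 0.16 at an adjusted p that rounds to 0.05.

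Hps6 libraries of D4M had 22.4, 26.8, 23.4, 19.3 and 19.3 CPM, above all others, and those of B16F10 luc2 had 5.56, 5.89, 6.1, 7.88 and 5.04 CPM, below all others. WT31 lay between 13.2 and 15.8 CPM, RET between 9.65 and 13.1 CPM and HCmel12 between 9.76 and 11.5 CPM. The difference of B16F10 luc2 to D4M was -1.87 (log2, SE 0.12, adjusted p = 6.5e-14). Hps6 thus ran against its partners in both lines.

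BLOC-1 has 8 subunits, which work in the exit of cargo from early endosomes, and they did not move together. Against D4M, 1 subunit was higher and 4 lower in WT31, 4 were higher and 4 lower in B16F10 luc2, and 3 were higher and 4 lower in RET. Their median differences to D4M were -0.07, 0.07 and -0.07 (log2). Over all tested genes, 76.1%, 77.7% and 77.1% were called in these comparisons, higher and lower together. Dtnbp1, which encodes dysbindin, was the subunit with the widest range. Its libraries in D4M had 27.1, 29.5, 27.9, 22 and 24.9 CPM, and no library of another line was under 70.2 CPM. B16F10 luc2 had 97.9, 92.8, 99.7, 111 and 94 CPM, RET 98.4, 87.6, 73, 93.2 and 89 CPM, HCmel12 82, 80.4, 76.9, 78.4 and 86 CPM, and WT31 70.2, 70.8, 79.8, 74.1 and 93.2 CPM. The difference of D4M to HCmel12 was -1.63 (log2, SE 0.09, adjusted p = 1.2e-14), and no step among the other 4 lines was called between neighbours, although B16F10 luc2 exceeded HCmel12 by 0.29 (adjusted p = 0.002).

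Bloc1s6, which encodes pallidin, went the other way. D4M had 81.7, 77.5, 94.5, 83.2 and 81 CPM, and the highest library elsewhere had 32.5 CPM. D4M exceeded HCmel12 by 1.75 (log2, SE 0.06, adjusted p = 6.1e-19), where Dtnbp1 gave -1.63 (SE 0.09), similar in size and opposite in sign. Snapin, which also binds SNAREs, was higher in D4M with 48.2 to 61.1 CPM, but its difference to WT31 was small, -0.20 for WT31 against D4M (log2, adjusted p = 0.013), and turned to 0.02 with library size alone. Its levels were 42.0 to 49.7 CPM in WT31, so that the highest WT31 library overlapped D4M. The difference of B16F10 luc2 to D4M was as small, -0.17 (log2, adjusted p = 0.03), next to a shift of 0.15 by library size alone in that comparison, and its libraries of up to 48.5 CPM overlapped D4M too. Ilf2 shares 14% of the 31-base sequences of Snapin.

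Bloc1s4, the subunit with the narrowest range, had 11.8, 11.1, 12, 11.2 and 12.8 CPM in WT31, 13.4, 11.9, 13.8, 12.5 and 14.9 CPM in B16F10 luc2 and 13.3, 11.1, 11.8, 12.7 and 10.2 CPM in RET. D4M had 9.88, 12.8, 11.7, 10.8 and 8.73 CPM and HCmel12 8.59, 10.8, 12.9, 8.76 and 10 CPM. All 5 lines overlapped, and only B16F10 luc2 was called above a line of LM-melanoma, with 0.31 against D4M and 0.39 against HCmel12 (log2, adjusted p = 0.011 and 0.0022). The first was 0.16 (adjusted p = 0.21) without D4M replicates 1 and 5.

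Bloc1s2 had means of 56.2 CPM in B16F10 luc2 and 59.3 CPM in RET against 34.1 to 38.4 CPM in the other lines. A share of 22.6% of its 31-base sequences occurs in other genes, mostly a pseudogene, so its level is uncertain. Bloc1s2 was called lower in WT31 than in D4M by -0.17 and than in HCmel12 by -0.17 (log2), and these differences turned to 0.06 with library size alone and to 0.01 with TPM, respectively. In WT31 against HCmel12, log2(TPM + 1) moved the median of all genes by 0.16. Bloc1s3 was between 6.05 CPM in HCmel12 and 13.0 CPM in WT31, a difference of 1.11 (log2, SE 0.13, adjusted p = 2.8e-08). Bloc1s5 was highest in RET, at 20.9 CPM ± 1.51 (SD, n = 5).

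Bloc1s1 had a mean of 35.7 CPM in D4M and 44.3 CPM in HCmel12, above the means of 27.4 CPM in WT31, 29.6 CPM in RET and 23.9 CPM in B16F10 luc2. It was the member called lower in all 3 lines of HIM-melanoma than in both lines of LM-melanoma. However, 53.1% of its 31-base sequences also occur in other genes, and 50.8% in its neighbour Rdh5, so that the division of reads between them is uncertain. The call was lost with library size alone and with TPM.

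AP-3 is an adaptor of 4 subunits that sorts tyrosinase. Its large subunit Ap3b1, whose loss causes the pearl coat colour, had the narrowest range in the complex. D4M libraries had 85.6, 77.3, 95.7, 87.5 and 94.6 CPM and those of WT31 115, 125, 134, 130 and 160 CPM. HCmel12 had 119, 106, 121, 125 and 116 CPM, RET 111, 107, 118, 117 and 123 CPM, and B16F10 luc2 109, 114, 109, 115 and 108 CPM. D4M lay below all others, and B16F10 luc2 exceeded it by 0.34 (log2, SE 0.07, adjusted p = 1.2e-04). Ap3s1, the small subunit, had the widest range, with 89.9, 89.6, 86.7, 89.4 and 99.1 CPM in D4M and 42.7, 42.9, 43.8, 38.2 and 39.6 CPM in B16F10 luc2. WT31 had 52.1, 50, 55, 59.8 and 61 CPM, RET 65.1, 58, 63.6, 64 and 67.5 CPM, and HCmel12 60.4, 58.5, 58.2, 52.4 and 54 CPM. D4M was above and B16F10 luc2 below all other libraries, and B16F10 luc2 against D4M gave -1.14 (log2, SE 0.06, adjusted p = 3.3e-15). A share of 21.5% of the 31-base sequences of Ap3s1 occurs in other genes, chiefly pseudogenes.

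Ap3d1, which encodes the delta subunit lost in mocha mice, was highest in B16F10 luc2 with 313.2 CPM ± 14.9 (SD, n = 5), and 0.82 (log2) above D4M (SE 0.06, adjusted p = 9e-13). Ap3m1 was highest in RET with 250.8 CPM ± 14.3 (SD, n = 5) and lowest in B16F10 luc2 with 133.9 CPM ± 3.75 (SD, n = 5). B16F10 luc2 against RET gave -0.90 (log2, SE 0.05, adjusted p = 1.4e-13). For Ap3m1, 43.3% of the 31-base sequences occur in other genes, and 29.1% in its neighbour Vcl. D4M against HCmel12 gave 0.33 for Ap3m1 (log2, adjusted p = 2.7e-06) and turned to -0.12 with TPM.

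Lyst, a large trafficking protein that is mutated in beige mice, was lowest in WT31 at 20.2 to 28.9 CPM. The 5 libraries of HCmel12 had 49.1, 43.4, 48, 75.2 and 48.2 CPM. Replicate 4 lay far above the rest of HCmel12, and all WT31 libraries lay below all 5 of HCmel12. WT31 against HCmel12 gave -1.07 (log2, SE 0.12, adjusted p = 1.6e-08). WT31 against D4M gave -0.48 (log2, adjusted p = 0.0016), which turned to 0.01 with log2(TPM + 1) and to 0.02 with log2(TPM + 0.1). In that comparison log2(TPM + 1) moved the median of all genes by 0.24.

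The 6 membrane proteins split into Gpnmb, Trpm1, Bace2 and Atp7a, which were lower in D4M than in every other line, and Tpcn2 and Cd63, which were not. Gpnmb encodes a glycoprotein related to PMEL. Its libraries had 8620, 8280, 8710, 8580 and 7590 CPM in B16F10 luc2, 4350, 4910, 4850, 4820 and 4360 CPM in RET, and 2280, 2220, 3180, 2510 and 3300 CPM in WT31. HCmel12 had 2580, 2620, 2650, 2860 and 2740 CPM, and D4M 265, 230, 262, 153 and 189 CPM. WT31 and HCmel12 overlapped and were not separated by the test (log2 fold change -0.015, 95% interval -0.25 to 0.22), while D4M against HCmel12 gave -3.64 (log2, SE 0.12, adjusted p = 9.5e-20). Gpnmb thus kept at least 153 CPM in each D4M library, in contrast to Trpm1, and D4M replicates 2 to 4, which had at most 1 count of Tyrp1, held it too.

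Trpm1 encodes a cation channel first found in melanocytes and melanoma. Its WT31 libraries had 1730, 1650, 2690, 1740 and 3250 CPM. B16F10 luc2 had 247, 195, 150, 217 and 122 CPM, HCmel12 105, 72.7, 86.4, 207 and 62.4 CPM, and RET 59.7, 45.8, 55.3, 70 and 53.9 CPM. D4M had 0.046, 0.196, 0.0505, 0 and 0.26 CPM, that is 12.65 counts in all. WT31 lay far above every other library, HCmel12 replicate 4 reached the range of B16F10 luc2, and D4M was near the detection limit. The D4M level was 0.112 CPM with an exact Poisson interval (95%) of 0.0614 to 0.197 CPM, and the RET mean was 289 times its upper bound. The fitted difference of WT31 to HCmel12 was 4.46 (log2, SE 0.24, adjusted p = 6.3e-15) and that of WT31 to B16F10 luc2 3.56 (SE 0.24, adjusted p = 3.9e-13). Fitted values against D4M depend on the offset added to low counts and are not given as bounds.

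Bace2 encodes the protease that processes PMEL into fibrils. Its D4M libraries had 2.02, 0.8, 0.98, 1.69 and 1.53 CPM, and its HCmel12 libraries 56.2, 39, 43, 60.7 and 39.4 CPM. WT31 had 211, 193, 338, 228 and 449 CPM, RET 235, 199, 211, 235 and 222 CPM, and B16F10 luc2 205, 160, 148, 190 and 133 CPM. The lines of HIM-melanoma lay above HCmel12 and HCmel12 above D4M without overlap. The difference to HCmel12 was 2.52 (log2) in WT31, 2.23 in RET and 1.82 in B16F10 luc2, with SE of 0.18 each and adjusted p of 2e-12, 2.9e-11 and 1.5e-09. D4M against HCmel12 gave -5.12 (SE 0.50, adjusted p = 6.7e-10).

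Atp7a, the copper pump that loads tyrosinase, had D4M libraries of 12.7, 13.8, 14.5, 17.5 and 18.4 CPM. Its HCmel12 libraries of 34.1, 32.5, 29.6, 28.4 and 27.5 CPM lay above these without overlap. The means of Atp7a were 51.5 CPM ± 5.87 (SD, n = 5) in B16F10 luc2, 39.4 CPM ± 2.97 (SD, n = 5) in RET and 39.1 CPM ± 5.45 (SD, n = 5) in WT31. All lines of HIM-melanoma were above HCmel12, the smallest difference being 0.36 in WT31 (log2, SE 0.10, adjusted p = 0.0019). Tpcn2, a channel that acts on melanosome acidity, was low in all lines, with means from 7.09 CPM in HCmel12 to 11.4 CPM in D4M. Cd63, a tetraspanin of late endosomes that sorts PMEL, had means of 888 CPM in WT31, 824.8 CPM in HCmel12 and 822.9 CPM in D4M. The means were lower in B16F10 luc2 (593.5 CPM) and RET (537.3 CPM), and WT31 exceeded RET by 0.72 (log2, SE 0.09, adjusted p = 8.2e-08). Other genes, mostly a pseudogene, hold 15.9% of the 31-base sequences of Cd63.

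The comparison of HIM-melanoma with LM-melanoma asks which differences are shared by the lines that colonize the liver more often. Against D4M, 25 members were called in WT31 (17 higher, 8 lower), 32 in B16F10 luc2 (23 and 9) and 30 in RET (22 and 8), where 76.1%, 77.7% and 77.1% of all tested genes were called. Against HCmel12, 22 were called in WT31 (16 higher, 6 lower), 29 in B16F10 luc2 (23 and 6) and 25 in RET (21 and 4), with backgrounds of 70.4%, 69.1% and 67.2%. Thus the share of members called was near or above that of all genes, and most called members were higher in HIM-melanoma. The 3 comparisons with each line of LM-melanoma share its libraries.

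Members called in the same direction in all 6 comparisons were Hps3, Hps5, Atp7a, Mreg, Sytl2 and Bace2, which were higher in HIM-melanoma, against 6.53% of all genes, and Bloc1s1, which was lower, against 6.4%. Bace2 and Sytl2 were the 2 of these whose log2 fold change reached 1 in each of the 6 comparisons. Hps5 entered by the narrow margin given above and fell out when single libraries were left out, with 0.17 (adjusted p = 0.054) for WT31 against HCmel12 without HCmel12 replicate 4 and 0.16 (adjusted p = 0.055) without D4M replicates 1 and 5. Rab27a, Rab38, Mlph, Gpnmb and Trpm1 were not among them. The first 4 were not called higher in WT31 than in HCmel12. Trpm1 was called lower in RET than in HCmel12, with -0.78 for RET against HCmel12 (log2, SE 0.25, adjusted p = 0.0081). WT31 against HCmel12 gave 0.41 for Rab27a (log2, SE 0.19, adjusted p = 0.052), -0.26 for Rab38 (SE 0.10, adjusted p = 0.022) and -0.36 for Mlph (SE 0.16, adjusted p = 0.044). The value of Rab27a rested on HCmel12 replicate 4, with 200 CPM against at most 115 CPM in the other HCmel12 libraries, and was 0.63 (adjusted p = 0.00096) without it. Without this library the calls of Rab38 (-0.19, adjusted p = 0.077) and Mlph (-0.36, adjusted p = 0.058) were lost, and that of Mlph also without D4M replicates 1 and 5 (-0.36, adjusted p = 0.055).

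Within LM-melanoma, D4M differed from HCmel12 in 29 members (8 higher, 21 lower), against 72.5% of all genes. The median difference was -0.42 (log2) over the members and 0 over all genes. The members higher in D4M than in HCmel12 were Rab7, Hps6, Ap3m1, Ap3s1, Bloc1s3, Bloc1s6, Snapin and Tpcn2, none of them a movement gene. Within HIM-melanoma, WT31 differed from B16F10 luc2 in 30 members (13 higher, 17 lower), against 72.8%, and from RET in 27 (10 and 17), against 73.2%. B16F10 luc2 and RET differed in 22 (11 and 11), against 51.5%, which was the lowest background among the 10 pairs.

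Levels between genes can be compared only per transcript length, for which the authors' TPM values were used, with 4 libraries in D4M. In B16F10 luc2 the mean TPM was 444 for Rab38 and 53.7 for Rab32, and in D4M 0.621 and 8.36. Rab38 was thus the more abundant of the pair in the 4 lines other than D4M and the less abundant in D4M. In BLOC-2 the mean TPM of Hps3, Hps5 and Hps6 was 28.9, 24.2 and 3.43 in B16F10 luc2 and 5.64, 8.51 and 11.5 in D4M, so that Hps6 went from the least to the most abundant subunit. In BLOC-3, Hps4 exceeded Hps1 in WT31 (38.5 and 13.8 TPM), while Hps1 exceeded Hps4 in RET (20.6 and 10.3 TPM). In BLOC-1, Dtnbp1 and Bloc1s6 stood at 99.2 and 23.3 TPM in HCmel12 and at 29.6 and 73.0 TPM in D4M.

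**Figure D4:**
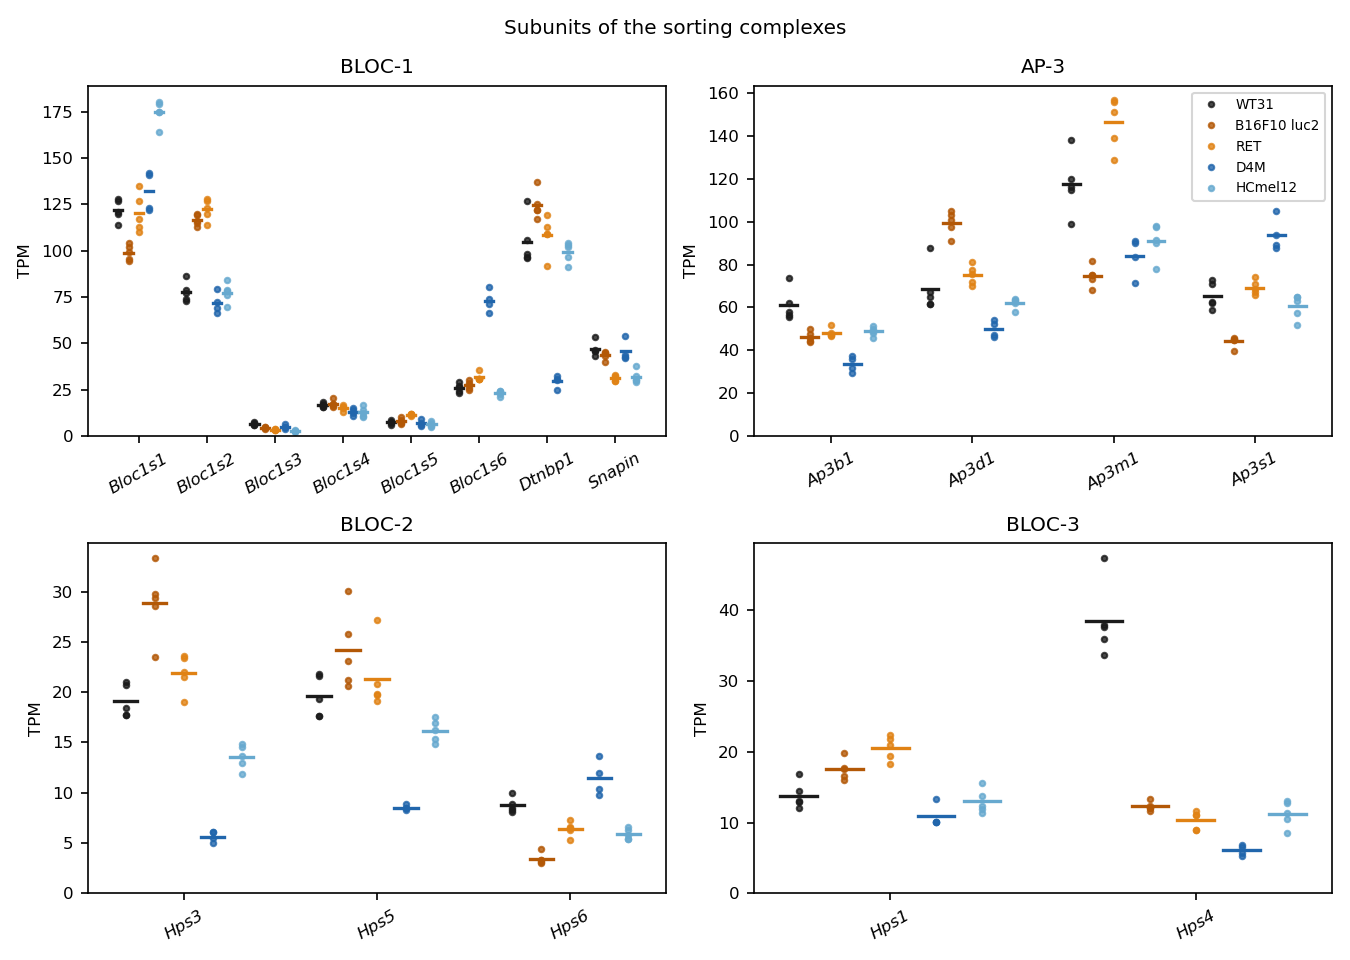
Points are libraries and bars line means of TPM for the subunits of BLOC-1, AP-3, BLOC-2 and BLOC-3, on linear axes from 0. In D4M, Bloc1s6 is above Dtnbp1 and Hps6 is above Hps3 and Hps5, whereas the order is reversed in the other 4 lines, and Hps4 is highest in WT31.

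Other genes of the same pathways were taken as lists. All 10 genes of melanosomal cargo, such as Tyr and Pmel, were lower in D4M than in each other line, against 15.7% of all genes. Of these, 6 were higher in all 3 lines of HIM-melanoma than in both lines of LM-melanoma, against 6.53%. They were Tyr, Pmel, Mlana, Slc45a2, Slc24a5 and Gpr143. The mean of Tyr was 3982 CPM in WT31, while B16F10 luc2 had 1134 CPM and RET 218.8 CPM. HCmel12 had 30.1 CPM of Tyr in replicate 4 and 6.31 to 9.13 CPM in its other libraries, and D4M had 0.806 CPM in replicate 1 and at most 0.172 CPM in the others. Mlana, the melanosomal antigen MART-1, fell in the same order, from 2088 CPM in WT31 to 142.9 CPM in HCmel12, with 3.26 CPM in D4M replicate 1 and at most 0.128 CPM in the other D4M libraries. HCmel12 thus had far less Tyr than WT31 but more Rab38 by the test. The Rab38 call was lost without HCmel12 replicate 4 (-0.19 for WT31 against HCmel12, adjusted p = 0.077).

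Of 7 regulators, 6 were tested and 4 were lower in D4M than in each other line, namely Mitf, Sox10, Pax3 and Tfeb, against 15.7% of all genes. Mitf, the main activator of melanosome genes, had a mean of 6.38 CPM in D4M and 415.6 to 692.3 CPM in the other lines, and Sox10 0.552 CPM against at least 547.3 CPM. Tfeb, a lysosomal regulator, was at 3.49 CPM in D4M and 48.6 CPM in WT31. Tfe3, its relative, was higher in D4M than in each other line, with 98.6 CPM ± 9.19 (SD, n = 5) against means of at most 61.3 CPM. The part of these regulators in the levels of the members was not tested.

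Of 12 general lysosome genes tested, 3 (Hexa, Neu1 and Atp6v0d1) were lower in D4M than in each other line, against 15.7% of all genes, and 1 (Ctsb) was higher, against 20%. The largest ranges were those of Mcoln1 (2.14, log2), Neu1 (1.81) and Ctsb (1.76). In RET, 5 of the 12 were lower than in each other line, against 5.06%. Of 10 subunits of HOPS and related tethers, which fuse endosomes with lysosome-related organelles, 6 were lower in D4M than in each other line, against 15.7% of all genes. They included Vps33a, which is mutated in buff mice, at 43.4 CPM in D4M against means from 60.1 to 79.1 CPM. Vps8 had the widest range (1.27, log2), with 21.5 CPM in D4M and at least 44.4 CPM elsewhere.

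Of 12 partners of BLOC-3, RAB32 and RAB38 tested among 14 listed, 4 (Rab11a, Rab22a, Rabggta and Pi4k2a) were higher in D4M than in each other line, against 20% of all genes, and 2 (Stx3 and Dctn1) were lower, against 15.7%. Sgsm2 had the widest range (2.33, log2) and was highest in RET, at 118.9 CPM. Of 10 further AP-1 and AP-3 subunits tested among 11, Ap1s3 and Ap3b2 were higher in D4M than in each other line and Ap1g2 and Ap3s2 lower, with the same backgrounds.

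Of 12 relatives and effectors of RAB27A, 6 passed the filter. Rab27b, the closest relative of Rab27a, had 23.3, 27.4, 14.3, 14.9 and 24.8 CPM in D4M, and 0.602, 0.797, 0.649, 0.121 and 0.163 CPM in HCmel12. In WT31, B16F10 luc2 and RET no library had more than 3 counts of Rab27b. With 3 counts per library as the floor, D4M was at least 184-fold higher than WT31, 173-fold higher than B16F10 luc2 and 179-fold higher than RET. Ap3b2, the neuronal counterpart of Ap3b1, had 16.2, 12.5, 16.3, 10.3 and 13.6 CPM in D4M, and means of at most 0.495 CPM in the other lines. Rab27b passed the filter on low counts through D4M, so its levels are given without a test. D4M against HCmel12 gave 5.12 for Ap3b2 (log2, SE 0.25, adjusted p = 6.6e-16). Myo7a, another myosin that links to RAB27A through Myrip, was lowest in D4M at 10.3 CPM and highest in RET at 307.1 CPM. Myrip itself was nearly confined to WT31, with a mean of 2.50 CPM, against means of at most 0.109 CPM in the other 4 lines.

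**Figure D5:**
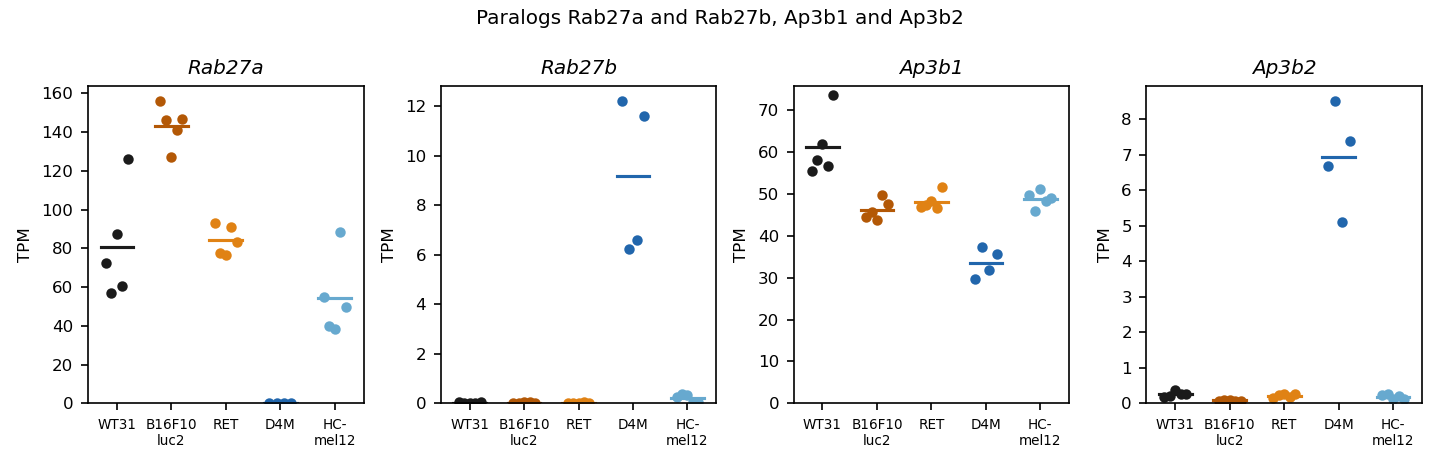
Points are libraries and bars line means of TPM for Rab27a and Rab27b and for Ap3b1 and Ap3b2, with a linear axis from 0 in each panel. D4M is lowest for Rab27a and Ap3b1 and is the single line with more than traces of Rab27b and Ap3b2.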

How the data were processed

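RNA-seq was analysed from 25 libraries, 5 of each of 5 murine melanoma lines, grouped by the labels. Per the submitters' processing notes, reads were trimmed with Trim Galore 0.6.4 and quantified with kallisto 0.4.6, as those notes write it, against GRCm38.p6. The study's methods write the kallisto version differently. The authors deposited estimated counts per gene, and TPM values for 24 libraries. For D4M replicate 1, only its estimated counts entered. The sources used here name different sequencers.

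Estimated counts entered voom and limma 3.58.1 (R 4.3.3) after filterByExpr and TMM scaling with edgeR 4.0.16, with all 5 lines in one fit. P-values of each of the 10 pairs, two-sided, were adjusted by Benjamini-Hochberg over all 15247 tested genes. "Higher than each other line" means called in all comparisons of that line. Levels are TMM-scaled CPM, and levels between genes are compared in the deposited TPM. Sequences of 31 bases shared with other genes were counted from the reference transcripts, since kallisto divides such reads. Replicates may share sources of variation that the labels do not name.

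Members and gene lists were chosen with earlier results of these data known. All members are accounted for. Values in every library are given for the 8 with the widest range, for the subunits of each complex with the widest and narrowest range and for further members where a comparison turns on them, and from each other list mainly the genes with the widest range are named. Further listed genes, such as Pax3, Tfe3, Vps33a and the members of called lists, were named after their values were seen. Alternatives were library size scaling, DESeq2 1.42.0 size factors and Wald test, edgeR's quasi-likelihood test, other filters, 2 lines per fit, a replicate block, TPM, a limit on fold change and leaving out libraries.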

Additional observations from a re-analysis of the deposited data

Results flagged for a closer look

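Within each line, the highest and lowest of the 5 libraries of every member were compared with the rest by Dixon's ratio, whose critical value for 5 samples is 0.71. Of 165 groups, 8 held a library that stood apart, a count near the share of about 1 in 20 that chance alone marks.

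In WT31, replicate 5 stood apart for Ap3d1 with 229 CPM (the others 174 to 184) and for Atp7a with 48.7 CPM (35.7 to 37.8). In HCmel12, replicate 4, the library with the most Tyr, stood apart for Lyst with 75.2 CPM (43.4 to 49.1), for Snapin with 42 CPM (31.1 to 33.9) and, on the low side, for Tpcn2 with 6.18 CPM (7.13 to 7.44). In D4M, Ap3s1 had 99.1 CPM in replicate 5 (86.7 to 89.9) and Snapin 61.1 CPM in replicate 3 (48.2 to 51.4). In B16F10 luc2, Bloc1s1 was low in replicate 5 with 21.6 CPM (24.1 to 24.7).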

How the results depend on the processing

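The same 16 members were lower in D4M than in each other line with both DESeq2 alternatives, edgeR, 2 lines per fit and without any single library. Library size scaling added Ap3d1, Hps1 and Bloc1s5, TPM added Ap3d1, no filter lost Trpm1, and 10 counts in every library removed Trpm1, Rab38, Sytl2 and Rab27a from the test. A limit of 1 on the size of the log2 fold change left 15, 17 and 15 members called in WT31, B16F10 luc2 and RET against D4M, 7, 5 and 3 against HCmel12, 13 in D4M against HCmel12, 8 in WT31 against B16F10 luc2, 4 in WT31 against RET and 1 in B16F10 luc2 against RET. The shares of all genes given above hold for calls without this limit, so counts at the limit are not read against a background. With this limit 2 members were commonly higher and 0 commonly lower, 3 were higher and 0 lower in WT31 than in each other line, 0 were higher or lower in B16F10 luc2, 0 were higher in RET, 1 was higher and 11 were lower in D4M (without Hps5, Ap3b1, Atp7a, Myo5a and Hps4), and 0 were higher or lower in HCmel12. The commonly lower member was lost (0) with library size, log2(TPM + 1) and log2(TPM + 0.1). Members higher in WT31 fell from 5 to 3 with DESeq2's Wald test, and with 10 counts in every library, which took Trpm1 and Sytl2 out of the test. Members lower in WT31 fell from 2 to 0 with library size and both TPM scales and to 1 with 2 lines per fit. Members lower in HCmel12 fell from 2 to 1 with library size and edgeR and to 0 with DESeq2 size factors, the Wald test, no filter and 2 lines per fit. Other than for the filter and the limit on fold change, the cause was not tested. Without single libraries the counts ranged from 0 to 2 for lower in HCmel12, 3 to 6 for higher in WT31, 1 to 2 for lower in WT31, 5 to 7 for commonly higher and 16 to 17 for lower in D4M. Without D4M replicate 1 and HCmel12 replicate 4, or, chosen after seeing the data, without D4M replicates 1 and 5 with or without HCmel12 replicate 4, 1 member was lower in HCmel12. A count of 1 does not stand for the same member throughout. Without D4M replicates 1 and 5, Tpcn2 lost its call against B16F10 luc2. Without HCmel12 replicate 4 alone, Rab7 and Tpcn2 each lost a call and Bloc1s3 gained one.

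Same-numbered libraries did not deviate together (correlations of -0.091 to 0.104, and 6 of 25 libraries matched their own number best), so the numbers do not pair the samples. With a replicate block 21 members were called in WT31 against HCmel12, 26 in WT31 against RET and 1 as lower in HCmel12, and the other counts were as reported.

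Of 13581 alternative values for 350 fold changes, 18 turned in direction. WT31 against D4M became 0.02 for Rab7, 0.22 for Ap3m1, 0.06 for Bloc1s2 and 0.02 for Snapin with library size. With log2(TPM + 1) it became 0.01, 0.48, 0.12 and 0.04, and 0.01 for Lyst, and with log2(TPM + 0.1) 0.01, 0.48, 0.12 and 0.04, and 0.02 for Lyst. On both TPM scales, D4M against HCmel12 became -0.12 for Ap3m1 and WT31 against HCmel12 became 0.01 for Bloc1s2. The median of all genes moved too with log2(TPM + 1). The shift was 0.24 in WT31 against D4M, 0.16 in WT31 against HCmel12 and -0.085 in D4M against HCmel12. At these depths, levels under 3 counts per library, such as Trpm1 in most D4M libraries, have no usable fitted fold change.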
